A study of Saccharomyces cerevisiae with 5 samples.

Results

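Transcripts of 10 genes for enzymes of the pentose phosphate pathway were followed in the budding yeast Saccharomyces cerevisiae. They were the genes whose name on the array was ZWF1, SOL3, SOL4, GND1, GND2, RPE1, RKI1, TKL1, TKL2 or TAL1, which makes 10 of the 6256 genes measured, and none was lost, since no filter on low values was applied. RNA of mid-log cells grown at 30 °C in a rich medium with dextrose was labelled with the green dye Cy3 and hybridised on 5 arrays against genomic DNA labelled with the red dye Cy5. The labels give the same strain, Sigma 1287b, L5366, for RNA and DNA (the paper spells it Sigma1278b), and all 5 arrays form 1 group of untreated cells, with no mutant and no second condition. The labels number the RNA samples without saying whether each came from its own culture, and the study's methods speak of fewer biological replicates than there are arrays, so errors and p-values measure only the spread between these 5 samples, which may be technical.

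A level here is log2 of Cy3 over Cy5 at the 7 spots of a gene's only probe, relative to the median gene. Dividing by genomic DNA puts different genes on 1 scale as far as each has the same number of copies per genome, which was not tested. In RNA from whole cultures, fewer cells with a transcript and less of it per cell cannot be told apart. The 5 arrays lay on 3 slides and were scanned in 2 sessions, arrays 1 to 3 in the first and arrays 4 and 5, which shared a slide, in the second. Pairs of arrays correlated across genes at Pearson's r of 0.992 to 0.998, and genes are not independent replicates. The scanner software marked 90.9% to 98.8% of the gene spots on an array as well above background in the RNA channel, and 99.3% to 99.5% in the DNA channel. The glycolytic and fermentative genes TDH3, PGK1 and ADH1 had levels of 5.15, 4.89 and 4.62, and FBP1, PCK1 and ADH2, which glucose represses, had levels of -2.12, -2.01 and -2.63, the pattern of mid-log growth on glucose, although TDH3, PGK1, ADH1, FBP1 and ADH2 changed sign under loess, and in Agilent's processed signals TDH3 and ADH1 changed sign and PGK1 lost its call.

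The pentose phosphate pathway branches off from glycolysis at glucose 6-phosphate. Its oxidative branch makes NADPH and ribulose 5-phosphate in irreversible steps. Its non-oxidative branch interconverts sugar phosphates reversibly, supplies ribose 5-phosphate for nucleotides and erythrose 4-phosphate for aromatic amino acids, and returns the rest to glycolysis. In budding yeast, 3 of the enzymes are encoded by a pair of paralogous genes, of which 1 is known as the major and the other as the minor isoenzyme, and the minor members are better known from cells under stress or without glucose.

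The pathway fell into 2 sets of genes. ZWF1, SOL3, GND1, RPE1, RKI1, TKL1 and TAL1 lay above the median gene, between 2.12 and 4.86 on the log2 scale, whereas the minor isoenzyme genes SOL4, GND2 and TKL2 lay below it, between -3.45 and -2.78. Both sets moved toward the median gene under dye normalization. Loess fits the ratio on brightness, the mean log2 signal of both channels. The members' Cy5 signal ran only from 8341 to 25069 and their Cy3 signal from 101 to 83933. Their brightness thus largely followed the RNA signal. Loess therefore also removes differences in RNA level along with any dye effect, and how much of each was not tested. With loess within arrays, which centres the ratios at each brightness, the 7 lay between 0.066 and 1.17, GND1 lost its call (limma adjusted p = 0.173), and TKL2 turned to 0.17, above ZWF1 and GND1, so that the sets overlapped. In Agilent's own processed signals the 7 lay between 0.43 and 1.65 and the 3 minor genes between -2.21 and -0.98, still apart. By limma's moderated test of each level against the median gene, with Benjamini-Hochberg adjustment over all genes, 7 of the 10 members were above the median gene, where 47.7% of all genes were, and 3 were below it, where 47.6% were. Under loess the count above was also 7, with TKL2 in place of GND1. The limma adjusted p-values of the members ran from 3.52e-12 for TAL1 to 1.38e-10 for SOL4. The members' median level was 2.30, beside -0.0023 for all genes. RKI1 at 2.12 and GND2 at -2.78 bordered the widest gap in the members' own order, so no member lies between them by definition. That interval held 4801 of the 6256 genes, or 76.7%.

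**Figure D1:**
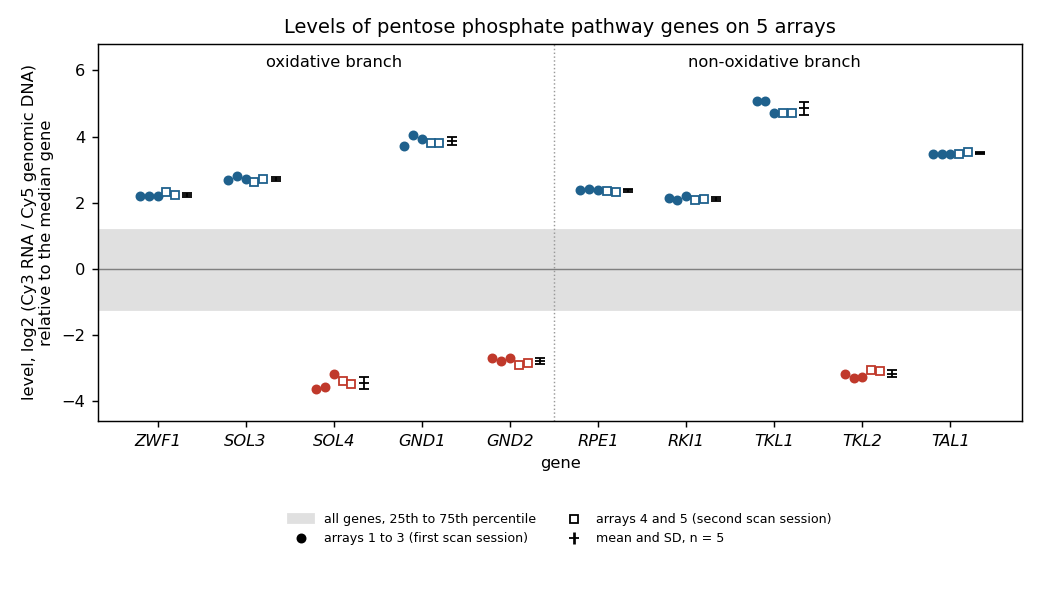
Level of each gene on each of the 5 arrays, in log2 of Cy3 RNA over Cy5 genomic DNA relative to the median gene. Filled circles are arrays 1 to 3, open squares arrays 4 and 5, and bars the mean and SD over 5 arrays. Blue genes are the major or single isoenzymes and red genes the minor ones. The 7 blue genes lie above the grey band of the middle 50% of all genes, the 3 red genes lie below it, and no point falls between 2.07 and -2.69. With loess within arrays, not drawn here, TKL2 turned to 0.17 and the sets overlapped.

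The oxidative branch starts with ZWF1 (YNL241C), glucose 6-phosphate dehydrogenase, the enzyme that commits glucose 6-phosphate to the pathway. Its levels were 2.21, 2.19, 2.19, 2.31 and 2.25 on arrays 1 to 5, which is 2.23 ± 0.05 (SD, n = 5) or 4.69-fold the median gene, against 0.14 under loess and 0.49 in Agilent's processed signals. The 5 arrays lay close together, with arrays 4 and 5 the highest, and ZWF1 stood at percentile 88.5 of all genes. It has no second gene for the same step in yeast.

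The next step, opening of the lactone by 6-phosphogluconolactonase, belongs to SOL3 (YHR163W) and SOL4 (YGR248W). SOL3 had levels of 2.70, 2.82, 2.71, 2.64 and 2.72 on arrays 1 to 5 (2.72 ± 0.07, SD, n = 5), at percentile 91.8. SOL4 had levels of -3.63, -3.56, -3.16, -3.39 and -3.49 (-3.45 ± 0.18, SD, n = 5), at percentile 6.28. Every SOL3 value thus lay far above every SOL4 value, and array 3 was the highest for SOL4. The SD of SOL4 was larger than that of 91.7% of all genes.

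The third step, oxidative decarboxylation of 6-phosphogluconate, makes the second NADPH and is carried out by GND1 (YHR183W) and GND2 (YGR256W). GND1 had levels of 3.72, 4.05, 3.93, 3.80 and 3.80 on arrays 1 to 5 (3.86 ± 0.13, SD, n = 5), at percentile 96.2 and 14.5-fold the median gene. It was at 0.066 under loess and at 0.43 in Agilent's processed signals, the steepest drop of the 7 higher genes. GND2 had levels of -2.71, -2.78, -2.69, -2.91 and -2.83 (-2.78 ± 0.09, SD, n = 5), at percentile 10.7 and 6.89-fold below the median gene. The groups of values did not overlap, and GND2 was the highest of the 3 minor genes on every array. It was instead the lowest of all 10 genes under loess (-2.12), in Agilent's processed signals (-2.21) and with normexp background correction (-3.29).

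In the non-oxidative branch, RPE1 (YJL121C) encodes ribulose-phosphate 3-epimerase and RKI1 (YOR095C) ribose-5-phosphate isomerase, which together share out ribulose 5-phosphate between xylulose and ribose phosphates. RPE1 had levels of 2.39, 2.43, 2.39, 2.35 and 2.32 on arrays 1 to 5 (2.38 ± 0.04, SD, n = 5). RKI1 had levels of 2.14, 2.07, 2.20, 2.07 and 2.11 (2.12 ± 0.06, SD, n = 5), the lowest mean of the 7 genes above the median gene. Both stood between percentiles 87.4 and 89.5, next to ZWF1.

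Transketolase moves carbon units between sugar phosphates and is encoded by TKL1 (YPR074C) and TKL2 (YBR117C). TKL1 had levels of 5.09, 5.07, 4.70, 4.71 and 4.71 on arrays 1 to 5 (4.86 ± 0.20, SD, n = 5), 28.9-fold the median gene and the highest of the pathway, with only 105 of the 6256 genes above it. Arrays 1 and 2 were higher than the other 3, with arrays 2 and 3 on the same slide, and the SD was larger than that of 93.8% of all genes. TKL2 had levels of -3.17, -3.29, -3.27, -3.05 and -3.102 (-3.18 ± 0.10, SD, n = 5), at percentile 7.75, so the same reaction had the highest member and one of the lowest. TAL1 (YLR354C), transaldolase, which works beside transketolase, had levels of 3.48, 3.49, 3.48, 3.47 and 3.54 (3.49 ± 0.03, SD, n = 5). Its SD was among the smallest on the arrays, at percentile 2.96 of all genes.

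The order by mean level was TKL1, GND1, TAL1, SOL3, RPE1, ZWF1, RKI1, GND2, TKL2 and SOL4. This order held in most alternatives but not under loess or in Agilent's processed signals, where GND1 dropped below ZWF1 and GND2 came last, nor with normexp, where RKI1 passed ZWF1 and GND2 came last, nor with RNA signal alone, where ZWF1 passed RPE1 and SOL4 passed TKL2. Differences between neighbours in this order were taken within each array and tested by exact permutation of their signs (two-sided), which over 5 arrays has 32 patterns and cannot give a p below 0.0625. For 7 of the 9 neighbouring pairs the higher gene was higher on 5 of 5 arrays, which gave this smallest exact p of 0.0625. The exceptions were ZWF1 over RKI1, with a difference of 0.11 ± 0.09 that held on 4 of 5 arrays (exact p = 0.125, n = 5), and TKL2 over SOL4, with a difference of 0.27 ± 0.22 that also held on 4 of 5 arrays (exact p = 0.125, n = 5). The gap between RKI1 and GND2 was 4.90 ± 0.06, while the next largest difference between neighbours was 0.996, of TKL1 over GND1.

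The isoenzyme pairs were compared as the difference of the major and the minor gene within each array. SOL3 exceeded SOL4 by 6.33, 6.38, 5.88, 6.03 and 6.21 on arrays 1 to 5, a mean of 6.17 ± 0.21 (SD) or 71.8-fold. GND1 exceeded GND2 by 6.43, 6.83, 6.62, 6.71 and 6.63, a mean of 6.64 ± 0.14 (SD) or 99.9-fold. TKL1 exceeded TKL2 by 8.26, 8.36, 7.97, 7.76 and 7.81, a mean of 8.03 ± 0.27 (SD) or 262-fold. The major gene was higher on 5 of 5 arrays in each of the 3 pairs (exact sign-flip permutation test, p = 0.0625 for each, the smallest it can give; no adjustment over the 3 pairs was made, since none can pass 0.05). Put as a share of the pair's summed ratios, taken off the log scale, SOL4 made up 1.39%, GND2 0.995% and TKL2 0.386%. All 3 gaps shrank under loess and in Agilent's processed signals, for GND to 2.19 and 2.64. The folds are thus lower and the shares higher under these 2 settings. On arrays 4 and 5 the RNA signal of SOL4 and TKL2 was mostly not well above background, so the folds and shares of these 2 pairs are less certain than that of GND.

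The gap was widest for transketolase and narrowest for the lactonase genes. The SOL gap minus the GND gap was -0.48 ± 0.25, the SOL gap minus the TKL gap -1.87 ± 0.20, and the GND gap minus the TKL gap -1.39 ± 0.30, each below 0 on 5 of 5 arrays (exact sign-flip permutation test, p = 0.0625 for each, n = 5, the smallest it can give). This order of the gaps depended on the dye normalization. With loess within each array the SOL, GND and TKL gaps shrank to 1.48, 2.19 and 0.996, and with Agilent's own processed signals to 2.78, 2.64 and 2.63, all still above 0 on every array. The within-session values were 5.96, 6.64 and 7.84 for the SOL, GND and TKL gaps in the second session and 6.31, 6.61 and 8.19 in the first.

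The gaps came mostly from the RNA channel. SOL3 had Cy3 intensities of 12399, 10402, 9455, 8535 and 11704 on arrays 1 to 5, against 163, 116, 155, 170 and 183 for SOL4. GND1 had 47225, 41992, 40485, 36853 and 44755, against 596, 372, 396, 440 and 524 for GND2. TKL1 had 83933, 56739, 44468, 49325 and 61883, against 160, 103, 101, 155 and 169 for TKL2. In each pair every value of the major gene was far above every value of the minor gene. As log2 differences, the RNA signal differed by 6.06 ± 0.33 for SOL3 over SOL4, by 6.53 ± 0.22 for GND1 over GND2 and by 8.74 ± 0.34 for TKL1 over TKL2 (SD, n = 5 arrays).

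Genomic DNA signal was far more even. All 10 genes had Cy5 intensities between 8341 and 25069, and their probes were well above background in Cy5 on 5 of 5 arrays. The Cy5 difference was -0.11 ± 0.13 for SOL3 minus SOL4 and -0.098 ± 0.16 for GND1 minus GND2, close to 0 on the log2 scale. It was 0.69 ± 0.28 for TKL1 minus TKL2. TKL1 averaged 14065 in Cy5 and TKL2 8682, the lowest of the members, so division by genomic DNA made the TKL gap narrower than in RNA signal alone. The members of a pair are of nearly the same length: 2043 bases for TKL1 and 2046 for TKL2, 1470 for GND1 and 1479 for GND2, and 750 for SOL3 and 768 for SOL4, per the RefSeq table of assembly R64.

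**Figure D2:**
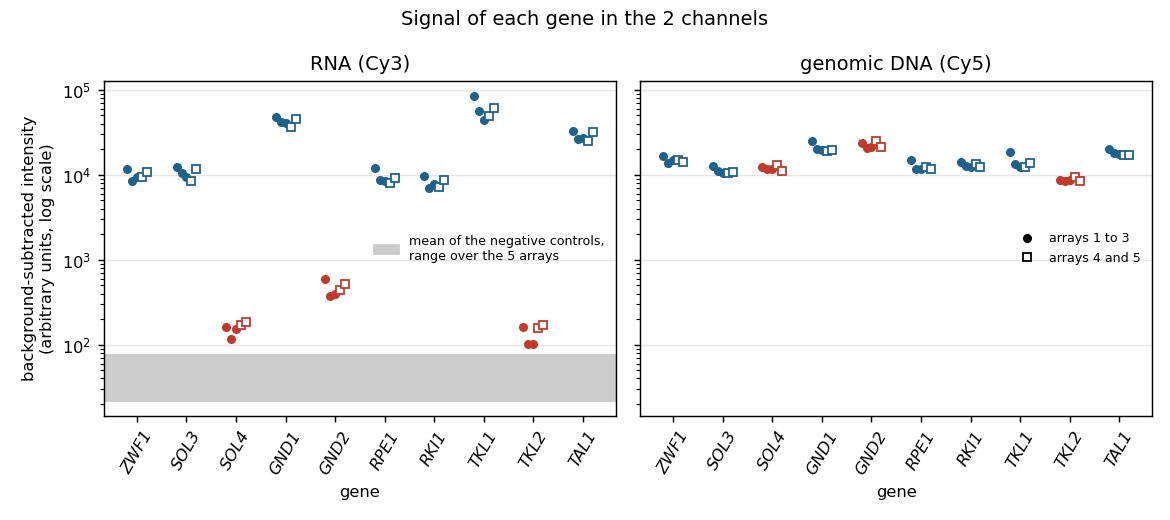
Background-subtracted intensity in arbitrary units, on a log axis, of each gene in the RNA channel (Cy3, left) and the genomic DNA channel (Cy5, right). Circles are arrays 1 to 3 and squares arrays 4 and 5, and the grey band is the range over 5 arrays of the mean of the negative control spots, 21.9 to 74.8. RNA signal spans 101 to 83933, genomic DNA signal only 8341 to 25069.

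The 3 minor genes differed in how far their RNA signal stood above the background. GND2 was well above background at all 7 spots on 5 of 5 arrays, and its Cy3 signal was 6.13 to 18.1 times the mean of the negative controls. SOL4 was well above background at 7, 7, 7, 2 and 0 of 7 spots on arrays 1 to 5, with a signal 2.37 to 7.08 times that of the negative controls. TKL2 was well above background at 7, 7, 7, 0 and 0 spots, with a signal 2.16 to 4.69 times that of the negative controls. On arrays 4 and 5, where the negative controls averaged 71.8 and 74.8 against 38.9, 22.0 and 21.9 on arrays 1 to 3, the levels of SOL4 and TKL2 thus rested on spots that the scanner software mostly did not separate from background. With only spots well above background, SOL3 exceeded SOL4 by 6.04 over 4 arrays and TKL1 exceeded TKL2 by 7.92 over 3 arrays. With the negative control mean subtracted as well, an alternative chosen after seeing the data, the SOL, GND and TKL gaps were 6.69, 6.78 and 8.66. The probe sequences were not analysed here, so how far each probe also reads the paralogue was not tested.

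**Figure D3:**
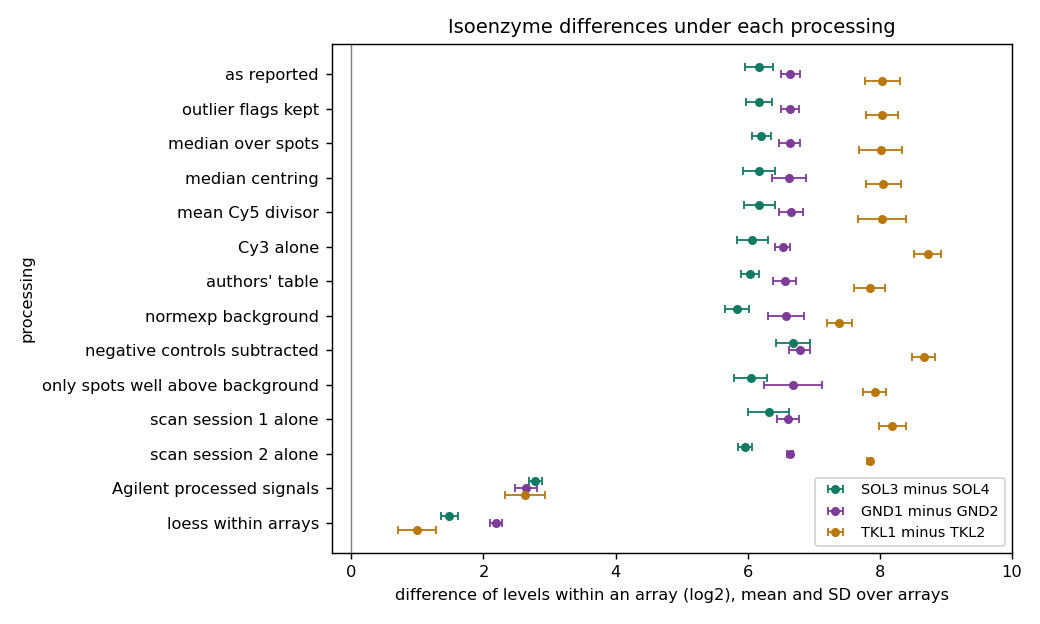
Difference of the major and the minor gene's level within an array (log2, mean and SD over the arrays used) under each processing, for SOL3 minus SOL4, GND1 minus GND2 and TKL1 minus TKL2. All points lie above 0. The gaps lie between 5.84 and 8.72 under every processing except Agilent's processed signals, 2.63 to 2.78, and loess within arrays, 0.996 to 2.19.

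The branches of the pathway were compared by their medians, which on each array were ZWF1 and RPE1, so the comparison is that of these 2 genes and no separate evidence on the branches. The median of the 5 oxidative genes was 2.23 ± 0.05 and that of the 5 non-oxidative genes 2.38 ± 0.04 (SD, n = 5 arrays). Their difference, -0.15 ± 0.09, was below 0 on 5 of 5 arrays (exact sign-flip permutation test, p = 0.0625, n = 5). It turned to 0.086 with RNA signal alone (exact permutation p = 0.25, n = 5). Without the 3 minor genes, an alternative chosen after seeing the data, the difference was -0.22 ± 0.05.

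Between the scan sessions no member differed by limma at an adjusted p of 0.05, where 2.64% of all genes did. At an unadjusted limma p under 0.05 there were 2 of the 10 members, beside 1262 of the 6256 genes, which is about the same share. TKL2 averaged -3.08 in the second session and -3.24 in the first, a difference of 0.17 (limma adjusted p = 0.191). GND2 averaged -2.87 in the second session and -2.73 in the first, a difference of -0.14 (limma adjusted p = 0.223). The largest difference among the members was that of TKL1, which averaged 4.71 in the second session and 4.95 in the first, with a limma adjusted p of 0.29. With slide as a random block the count of members was 4, namely ZWF1, GND2, TKL1 and TKL2, beside 2242 of all genes. Once dim spots were left out it was 2, SOL4 and GND2, beside 2219 of all genes. GND2 itself had all 7 RNA spots well above background on every array, yet its difference was then -0.88. The filter also changes which genes enter the quantile normalization, and the effect of that was not tested. Without array 3 the count was 1, TKL1, beside 60 of all genes. Session and slide 3 cannot be told apart. The members varied between arrays about as much as other genes, with a median SD of 0.078 beside 0.080 for all genes.

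Around the pathway, 40 genes in 8 lists of metabolic neighbours and regulators were read on the same scale. Over all genes the same test called 47.7% above the median gene and 47.6% below it, the shares to set beside each count. Among the genes that supply glucose 6-phosphate, 3 of 5 lay above the median gene and 2 below it, with a list median of 0.17, and HXK2 and GLK1 turned negative under loess and in Agilent's processed signals. The glycolytic isomerase PGI1, which competes with ZWF1 for glucose 6-phosphate, had a level of 4.51 ± 0.06 (SD, n = 5), beside 2.23 for ZWF1. Hexokinase HXK2, the main kinase on glucose, had a level of 3.03 ± 0.13 and HXK1 one of -3.12 ± 0.09, a gap of 6.15 ± 0.17 within arrays, beside 6.17 ± 0.21 for the SOL gap. It was 1.04 in Agilent's processed signals and 0.20 under loess. Glucokinase GLK1 was near the median gene at 0.17 ± 0.17 (limma adjusted p = 0.0248, a call lost in 7 alternatives that kept its sign), and its paralogue EMI2 was at -1.41 ± 0.08.

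Of the 4 related genes with a probe of their own, 1 lay above the median gene, 2 below it, and 1 did not pass the test. NQM1 and SHB17 changed sign under loess. NQM1, a paralogue of TAL1, was at -2.72 ± 0.11 (SD, n = 5), so TAL1 exceeded it by 6.21 ± 0.08. This gap was 1.27 in Agilent's processed signals and 0.0059 ± 0.15 under loess, where TAL1 was higher on 3 of 5 arrays. SOL1 and SOL2, which resemble SOL3 and SOL4 in sequence and are known for a role in tRNA export, were at -0.007 (limma adjusted p = 0.876) and -0.70 ± 0.05, between SOL3 and SOL4. SHB17, the bisphosphatase that feeds ribose synthesis from glycolytic intermediates, was at 1.91 ± 0.07, below RKI1.

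The genes listed around the products of the non-oxidative branch, not all of which draw on them, were above the median gene, with exceptions under loess. Of the 6 genes around phosphoribosyl pyrophosphate, all 6 were called above it, with a list median of 1.58, but PRS1, PRS2 and PRS5 turned negative under loess and PRS2 in Agilent's processed signals. The synthetase subunit genes ran from PRS1 at 3.0 and PRS3 at 2.39 down to PRS2 at 0.50, and ribokinase RBK1 was at 0.94. Of the 5 aromatic synthesis genes, all 5 were called above it, with a median of 2.19 beside the members' 2.30, but ARO2 turned negative under loess and in Agilent's processed signals. ARO1, which carries several steps of the pathway and is the median gene of the list, was at 0.083 under loess and lost its call (limma adjusted p = 0.143). ARO4 and ARO3 both encode enzymes that condense erythrose 4-phosphate with phosphoenolpyruvate. ARO4 was at 3.58 ± 0.03 (SD, n = 5) and ARO3 at 0.52 ± 0.44, but the ARO3 probe averaged only 708 in Cy5 and 132 in Cy3, was well above background in Cy3 on 3 of 5 arrays, and its level was -3.79 with RNA signal alone, -1.71 with normexp and -0.13 with negative controls subtracted.

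Other sources of NADPH were split, 5 of 8 above the median gene and 3 below, beside 47.7% and 47.6% of all genes. The list median was 0.79, although IDP1 and IDP3 changed sign under loess. The cytosolic aldehyde dehydrogenase ALD6 was at 3.70 ± 0.07 (SD, n = 5), above ZWF1 and below GND1. Under loess ALD6 was at 0.095, below ZWF1 at 0.14 and above GND1 at 0.066. The mitochondrial isocitrate dehydrogenase IDP1 was at 2.12 ± 0.06, the cytosolic IDP2 at -2.91 ± 0.11 and the peroxisomal IDP3 at -2.48 ± 0.19, so that IDP1 exceeded IDP2 by 5.03 ± 0.07, against 1.70 in Agilent's processed signals and 0.52 under loess. Malic enzyme MAE1 was at 2.17. Among the NADH and NAD kinases, UTR1 was at 0.98, the mitochondrial POS5 at 0.60 and YEF1 at -3.68. IDP3 was the only one of the 40 genes in the 8 lists that differed between sessions by limma (0.34, adjusted p = 0.0328). Of all genes, 2.64% differed. The RNA signal of IDP3 was well above background at only 4 and 5 of 7 spots on arrays 4 and 5.

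Of the NADPH users in redox defence, 2 of 3 were above the median gene: cytosolic thioredoxin reductase TRR1 at 2.06 and glutathione reductase GLR1 at 0.66, with mitochondrial TRR2 at -1.21. TRR1 and GLR1 turned negative under loess and lost their calls in Agilent's processed signals (limma adjusted p = 0.985 and 0.222). Of the 4 genes through which pentoses and their polyols can enter, 3 were below the median gene, of which XKS1 turned positive under loess and in Agilent's processed signals. Xylulokinase XKS1 was at -1.32, xylitol dehydrogenase XYL2 at -3.29 and sorbitol dehydrogenase SOR1 at -4.11, the lowest of all named genes, while the aldose reductase GRE3 was at 1.20. Of the 5 regulators, 4 were above the median gene, with the oxidative stress factor YAP1 at 1.56, the glycolytic activator GCR1 at 1.11, and the general stress factors MSN2 at 0.87 and MSN4 at 0.79, which was -0.49 with RNA signal alone. STB5, a factor known to act on genes of NADPH supply, was below it at -0.69 ± 0.09 but turned positive under loess and in Agilent's processed signals.

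**Figure D4:**
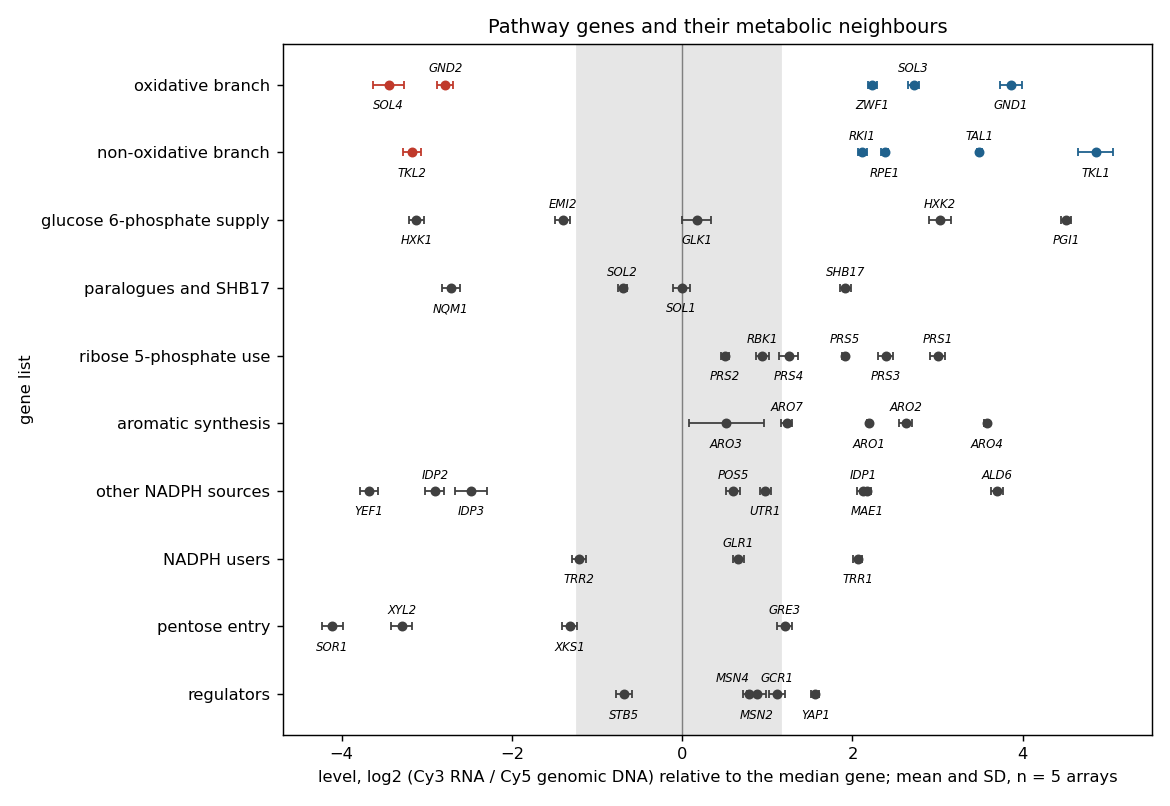
Mean level and SD over 5 arrays, in log2 of Cy3 over Cy5 relative to the median gene, of the pathway genes in the top 2 rows and of 40 neighbouring genes in 8 lists below them. The grey band spans the middle 50% of all genes. As in the pathway, genes lie on both sides of the band for glucose 6-phosphate supply, paralogues and SHB17, other NADPH sources and pentose entry. The list labelled ribose 5-phosphate use, which also holds ribokinase RBK1, has none below it. Nor have the lists of aromatic synthesis, NADPH users and regulators. Under loess, not drawn here, HXK2, GLK1, SHB17, PRS1, PRS2, PRS5, ARO2, IDP1, GLR1 and TRR1 turned negative. TKL2, NQM1, IDP3, XKS1 and STB5 turned positive.

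The chromosomal order of the isoenzyme genes was read from the RefSeq table. SOL3 and GND1, which encode consecutive steps, lie on chromosome VIII with 20 protein genes between them, and SOL4 and GND2 lie on chromosome VII with 7 between them. So the high members and the low members of these steps are each on a chromosome of their own. The genes in between did not share either level: the 19 measured between SOL3 and GND1, STB5 among them, had a median of -0.69 and ran from -3.47 to 4.90, and the 7 measured between SOL4 and GND2 had a median of 0.27 and ran from -2.35 to 3.09.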

How the data were processed

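The members and gene lists were chosen with earlier results of these data known. Per the file headers, Agilent Feature Extraction 10.1.1.1 (another release than the study's methods name) made the deposited intensity values of spots and local background, with flags of 0 or 1 and processed signals that the software had background-subtracted and dye-normalized. A further deposited table gives a log2 ratio, Cy3 over Cy5, per probe. At a tolerance of 0.001, 89.4% to 99.6% of its values per array matched ratios without background subtraction and 6.03% to 8.06% ratios with it, and it was used as an alternative.

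Each spot's median minus its background median was taken in both channels, and log2 of Cy3 over Cy5 computed. Control spots and spots with an outlier flag (1.41% to 3.81% per array) were left out, as were at most 18 spots per array at or below background. The outlier filter was kept with its effect on the session comparison known. Spots were averaged, arrays quantile normalized, and the median gene subtracted. No gene spot was saturated. Median intensity over genes was 1391 to 2028 in Cy3 and 11232 to 12915 in Cy5. Precision is limited by the number of arrays. Dyes were not swapped, so a dye effect remains in every ratio.

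Levels and sessions were fitted over all 6256 genes with limma 3.58.1 in R 4.3.3 (lmFit, eBayes, Benjamini-Hochberg, adjusted p of 0.05), which was tested on simulated data. Differences between genes were tested over arrays by exact two-sided permutation of their signs. The genes named are the members and the lists fixed in the design. RefSeq names matched 5756 of 6256 genes, and NQM1, SHB17 and YEF1 were found by systematic name. No coordinates are printed, because no source used here names the build behind the array design. Sequences of probes, proteins and promoters were not analysed here. Alternatives were other background corrections, normalizations, divisors, spot filters and summaries, the deposited table, slide as a random block, single sessions, and each array left out.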

Additional observations from a re-analysis of the deposited data

Results flagged for a closer look

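In 7 of 60 sets of values over the 5 arrays (genes, isoenzyme gaps and the branch difference), 1 array stood apart by Dixon's criterion for 5 values, where chance gives about 1 in 20. None was a member of the pathway, an isoenzyme gap or the branch difference. The array that stood apart gave HXK2 a level of 2.81 (array 1), EMI2 -1.26 (array 3), SOL1 -0.18 (array 5), NQM1 -2.53 (array 5), PRS2 0.43 (array 4), STB5 -0.85 (array 3) and FBP1 -2.43 (array 4). For each of these genes except SOL1, the mean and the outlying value lay on the same side of the median gene and the level passed the limma test. The mean of SOL1 without array 5 was 0.038.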

How the results depend on the processing

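The 3 isoenzyme gaps kept their sign in all 54 alternative values, lowest with loess (SOL 1.48, GND 2.19, TKL 0.996). Leaving out 1 array at a time, they ran from 6.08 to 6.24, 6.58 to 6.76 and 7.95 to 8.11. The branch difference turned to 0.086 with Cy3 alone and ran from -0.18 to -0.12 with an array left out. The count of members above the median gene was 7 in all 19 alternatives, with TKL2 in place of GND1 under loess. The count differing between sessions was 2 with only spots well above background, 4 with slide as a random block, and 0 to 1 with an array left out. Of 190 member levels, 188 kept sign and call. With loess GND1 was at 0.066 (limma adjusted p = 0.173) and TKL2 turned to 0.17 (limma adjusted p = 0.0329), above ZWF1 at 0.14 and GND1. The minor genes lay below all other members under each of the other settings. Causes were not tested.

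Among 874 values of other named genes, 39 changed sign, 15 lost their call (GLK1 in 7 settings, ARO3 in 2, and ARO1, GLR1, IDP3, PGK1, TRR1 and UTR1 in 1 each) and 1 gained it (SOL1, loess). The changed signs with loess were HXK2 -1.34, GLK1 -0.60, NQM1 0.19, SHB17 -0.073, PRS1 -0.13, PRS2 -0.42, PRS5 -0.10, ARO2 -0.46, IDP1 -0.46, IDP3 0.67, GLR1 -0.41, TRR1 -0.43, XKS1 1.0, STB5 0.99, TDH3 -0.85, PGK1 -0.10, ADH1 -0.61, FBP1 0.49 and ADH2 0.052. With Agilent's processed signals they were HXK2 -1.05, GLK1 -0.43, SOL1 0.064, PRS2 -0.23, ARO2 -0.15, XKS1 0.18, STB5 0.52, TDH3 -0.91 and ADH1 -0.49. With Cy3 alone they were SOL1 0.083, ARO3 -3.79 and MSN4 -0.49. With normexp they were GLK1 -0.055, SOL1 0.098 and ARO3 -1.71. With negative controls subtracted they were SOL1 0.0014 and ARO3 -0.13, with the deposited table SOL1 0.0055, in session 1 alone SOL1 0.035, and with an array left out SOL1 ran from -0.025 to 0.038.

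No paired analysis was possible because the arrays form 1 group, so no replicate numbers are shared between groups. Differences between genes were taken within arrays. With 5 arrays the exact test cannot pass 0.05, and on arrays 4 and 5 the RNA signals of SOL4 and TKL2 were mostly not well above background, which limits how exactly their gaps are known.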
